A study of Mus musculus with 48 samples.

Results

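S100a8, S100a9, S100a4, S100a6, S100a10, and S100a11, 6 calcium-binding genes of the S100 family, were followed through joint, lung, limb muscle, skin, and spleen of mice with collagen-induced arthritis (CIA) and of healthy mice. The genes were taken by name from the 34586 genes of the count table. Single cells had been profiled with Seq-Well, in which single cells settle into nanowells that each hold a barcoded bead, so that transcripts can be counted at their 3' ends as unique molecular identifiers (UMIs). Male DBA1/J mice of 8 to 12 weeks were immunized with 100 µg of bovine type II collagen in complete Freund's adjuvant and boosted on day 20 in incomplete adjuvant, and healthy mice received PBS. Lung, muscle, skin, and spleen came from 4 healthy and 6 CIA mice and whole knee joint from 3 healthy and 5 CIA mice, so that 48 samples came from 10 mice. Mice are called H3 to H7 when healthy and S1 to S8 when they had CIA. S1, S2, and S3 had severe arthritis and S5, S6, and S8 had mild arthritis. The severe mice and H3 carry the name of one experiment and the mild mice, H4, H6, and H7 that of another, so that severity and experiment cannot be told apart among the CIA mice. Dissected organs had been frozen and were thawed before digestion, and red blood cells had been lysed in spleen and in the muscle of 6 mice. The CIA model follows an injected antigen in 1 inbred strain, and organs of the same mouse are not independent samples.

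S100 proteins are small EF-hand proteins that change shape on binding calcium and then bind other proteins. S100a8 and S100a9 form the heterodimer calprotectin, which fills the cytosol of neutrophils, binds zinc and manganese, and, once released, acts through receptors such as Toll-like receptor 4. S100a4 binds non-muscle myosin and is widespread in fibroblasts and macrophages, S100a6 (calcyclin) is abundant in stromal and epithelial cells, and S100a10 and S100a11 pair with annexin A2 and annexin A1, respectively, at membranes. All 6 genes lie on chromosome 3 of the mouse genome (GRCm38, GENCODE annotation), in the order S100a4 (90603771 to 90606045, + strand), S100a6 (90612882 to 90624181, +), S100a8 (90668978 to 90670035, +), S100a9 (90692632 to 90695721, −), S100a11 (93520488 to 93526287, +), and S100a10 (93555080 to 93564643, +), and each basic transcript of them has 3 exons. S100a8 and S100a9 are 22.6 kb apart and are transcribed toward each other. The S100a4 gene overlaps another annotated gene, Gm42674, on the same strand, and S100a11 has a processed pseudogene, S100a11-ps, on chromosome 12, so the split of reads between these genes and their partners is uncertain.

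The starts of S100a8 and S100a9 are shown because each of these neighbours was the gene most like the other over organs and cell types, and that of S100a4 because its match lay at nearly the same distance. Sequences are from RefSeq (GRCm38.p6), which held a promoter for 5 of the 6 genes and none for S100a10, and are printed 5′ to 3′ on the gene's strand. RefSeq and GENCODE place the start of S100a8 at different bases. A search on both strands, from 250 bases before to 50 bases after each RefSeq start, was made for TATAAA and for TTGCNNAA, a short form of the site of C/EBP factors, which act in granulocyte differentiation. Capitals mark the matches, and the first line runs from TATAAA to the last base before the RefSeq start (chr3:90669041-90669070). The second covers the 250 bases before the start of S100a9 (chr3:90695722-90695971, − strand), and the third is S100a4 (chr3:90603739-90603769).
S100a8: TATAAAagcagctgacacttagcctcacat
S100a9: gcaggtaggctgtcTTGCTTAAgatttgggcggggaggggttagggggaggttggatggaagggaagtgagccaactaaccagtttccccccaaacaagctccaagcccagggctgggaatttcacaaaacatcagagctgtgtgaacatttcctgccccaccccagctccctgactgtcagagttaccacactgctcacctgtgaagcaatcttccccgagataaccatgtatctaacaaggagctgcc
S100a4: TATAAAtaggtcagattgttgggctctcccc
TATAAA began 30 bases before the start in S100a8 and 31 in S100a4, and in S100a9 a match began at the annotated start itself. TTGCNNAA was matched in S100a9, 236 bases before the start, and neither set of letters was matched in the windows of S100a6 and S100a11. Among 32851 RefSeq promoters of the same length, 13.6% held TATAAA and 10.8% held TTGCNNAA on either strand, and in 2.63% TATAAA lay on the gene's strand within the last 50 bases before the start. A match is a description of the letters and not of a bound site.

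In all, 12096 of 13240 cells carried one of 13 deposited cell type labels. Annotated cells of a sample held 17748 to 1645734 UMIs, and an annotated cell held 410 to 6239 (median 675). Levels are given as CPM, the UMIs of a gene scaled to 1000000 UMIs of the summed cells, and since UMIs count transcript ends, they were not divided by gene length. Some libraries shared barcodes. The muscle and spleen of S8 shared 36 barcodes, of which 34 carried the same label, and the muscle library of S8 held 150 B cells but no fibroblasts, endothelial cells, or myocytes, which goes against its organ. Lung S1 and spleen H6 shared 13 barcodes, and 3 other pairs shared 6 or 7. Over the table, 59 barcodes were found in more than 1 sample. Some of the results that rest on these libraries are also given without 1 of them, and others are not.

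S100a8 was the second and S100a9 the fourth most abundant of all genes in the annotated cells. S100a8 had 399478 UMIs, 3.75% of the total, and S100a9 had 174056 (1.63%). The other members were far less abundant, with 13393 UMIs of S100a6, 9034 of S100a10, 5412 of S100a11, and 3408 of S100a4. A UMI of S100a8 was found in 70.3% of annotated cells and one of S100a9 in 55.9%, against 39.0% for S100a6, 34.8% for S100a10, 25.6% for S100a11, and 13.4% for S100a4.

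S100a8 and S100a9 were highest in granulocytes in each sample in which both could be measured. Both genes are on the marker lists from which granulocytes and neutrophils were named, so this order is a description and was not tested. In the 19 samples with at least 5 granulocytes, S100a8 made up 234861 ± 49526 CPM of the granulocytes (SD, n = 19 samples), with a range of 140210 to 360287, and S100a9 made up 101689 ± 15216 CPM (77911 to 140200). These samples held 85 pairs of granulocytes with another label, and S100a8 was higher in granulocytes in all 85. The ratio of granulocytes to the other label ranged from 1.92 to 566 for S100a8 (median 28.8) and from 1.95 to 808 for S100a9 (median 36.3). The smallest ratio for S100a8 was that to neutrophils of a CIA joint (1.92), and in healthy muscle neutrophils had ratios of 3.05 and 4.21. Ratios to cells labelled dendritic cells were 2.12 to 11.6 in the spleen of CIA mice, 5.10 in a healthy spleen, and 4.27 and 5.10 in healthy muscle. Those to endothelial cells of CIA joints were 2.98, 6.59, and 57.2, and those to macrophages of CIA joints 5.62 to 11.3, against 29.3 to 406 in healthy joints.

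Some of the labels close to granulocytes also held other granulocyte transcripts. Camp and Ngp, which encode the cathelicidin and neutrophilic granule protein of granulocyte precursors, had a UMI in 95% and 97.9% of granulocytes. In cells labelled dendritic cells, Camp was found in 64.9% and Ngp in 60.3%, with S100a8 at 73319 CPM, and in endothelial cells Camp was found in 52.8%. Camp was also found in 47.3% of myocytes and 33.5% of fibroblasts, so this was not particular to dendritic and endothelial cells. The names of these labels were not tested, and their values of S100a8 and S100a9 are given by label only.

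**Figure D1:**
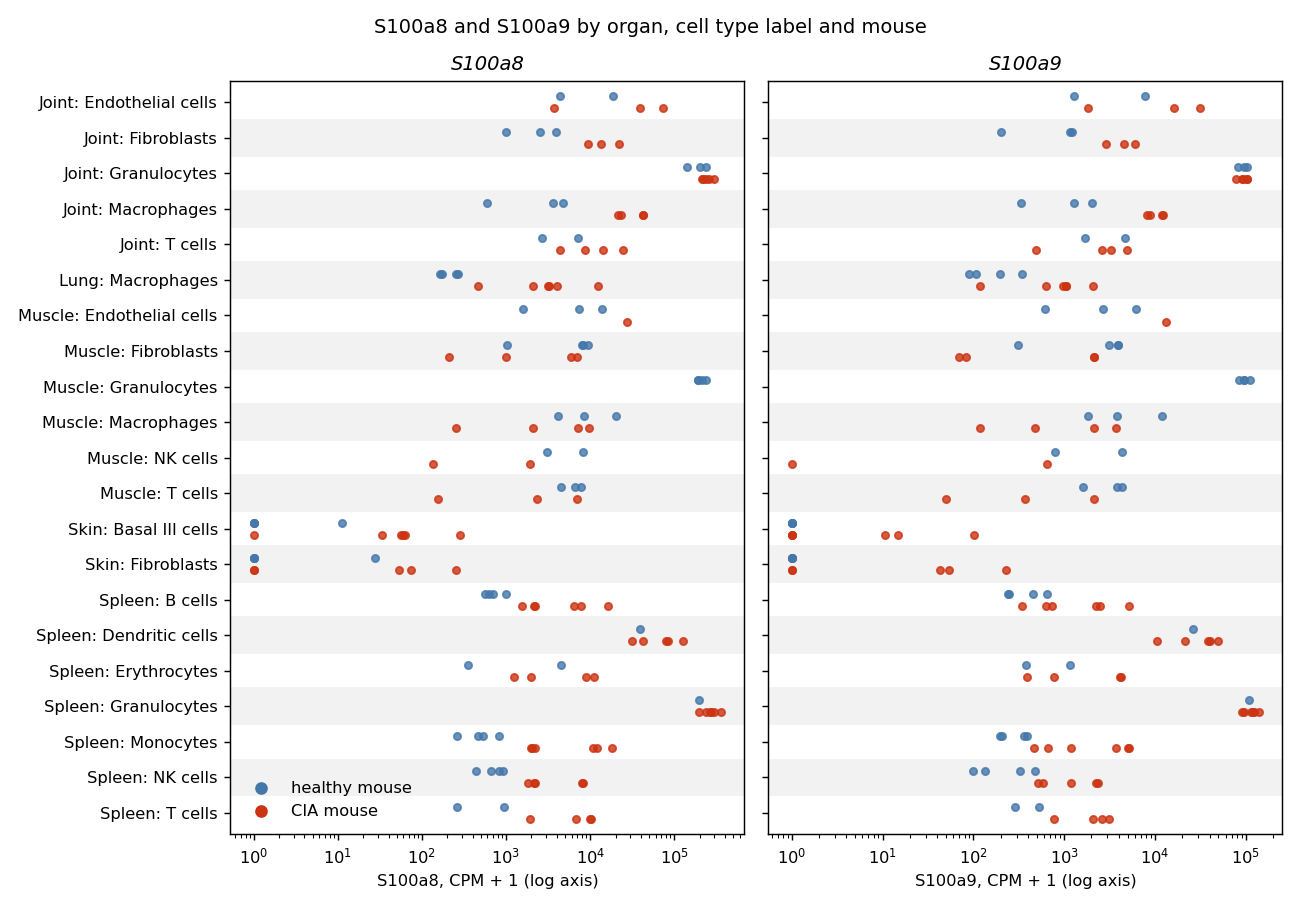
S100a8 (left) and S100a9 (right) in CPM + 1 on a log axis, with 1 point for each mouse with at least 10 cells of the label (5 for granulocytes), for organs and labels with at least 4 such mice in all; blue points are healthy and red points CIA mice. The granulocyte points lie farthest to the right in the organs that have them, skin lies at the left end, and the red points of lung macrophages and spleen labels lie to the right of most blue points.

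Within joint granulocytes, the levels of S100a8 and S100a9 were not shown to differ between CIA and healthy mice. S100a8 was 140210 CPM in H3, 239081 in H4, and 203771 in H7, and 259359 in S1, 292669 in S3, 220222 in S5, 211918 in S6, and 237917 in S8. The groups overlapped, and the difference in mean log2 CPM was 0.36 (two-sided exact permutation test, n = 3 and 5, p = 0.179, adjusted p = 0.357 over 2 tests, smallest possible p 0.0357). S100a9 was 94220 ± 10562 CPM in healthy and 93940 ± 10324 in CIA mice (SD, n = 3 and 5), and its log2 difference was -0.0055 (exact permutation p = 0.929). Only 5 granulocytes were left in H4, 7 in H7, and 8 in S6, which limits the test. Muscle and spleen had too few mice with at least 5 granulocytes in one of the groups for a test, and lung and skin had no sample with 5.

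Most UMIs of S100a8 came from granulocytes, whereas those of the other 4 genes were spread over labels. Granulocytes were 9.98% of annotated cells and held 72.4% of the S100a8 UMIs and 74.0% of the S100a9 UMIs. They held 33.0% of the S100a11 UMIs, more than any other label, 14.2% of S100a6, 1.32% of S100a10, and 1.20% of S100a4. In the joint, granulocytes and neutrophils together held 76.6% to 83.8% of the S100a8 UMIs of a healthy mouse and 60.7% to 87.7% of those of a CIA mouse. In spleen, the share was 62.8% to 82.7% in CIA and 0% to 86.1% in healthy mice. In muscle, it was 82.0% to 92.7% in healthy and 3.76% to 94.0% in CIA mice. Lung held no granulocytes or neutrophils in healthy mice, where the share was 0%, and the share in CIA lungs ranged from 0% to 53.9%.

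S100a4 was highest in macrophages of joint and muscle and in joint fibroblasts. Of its UMIs, 33.5% were in fibroblasts and 33.1% in macrophages. In healthy mice, the level was 1704 ± 135 CPM in joint macrophages (SD, n = 3), 1424 ± 259 in muscle macrophages (n = 3), and 1300 ± 417 in joint fibroblasts (n = 3). The step from joint to muscle macrophages exceeded the larger of their SDs, and that from muscle macrophages to joint fibroblasts did not. Skin fibroblasts were next with 624 ± 198 CPM (n = 4). Lung macrophages of healthy mice had only 143 ± 81.8 CPM (n = 4), place 9 of 13 groups. At the other end were spleen B cells with 21.8 ± 7.21 CPM (n = 4), below muscle endothelial cells with 30.0 ± 51.9 (n = 3), a step within the larger SD.

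S100a6 was led by joint fibroblasts, followed by joint macrophages. Joint fibroblasts of healthy mice had 4362 ± 956 CPM (SD, n = 3), joint macrophages 3697 ± 666 (n = 3), and muscle fibroblasts 2573 ± 1401 (n = 4), and none of these neighbours differed by more than the larger SD. Spleen B cells were lowest with 101 ± 52.9 CPM (n = 4). S100a10 was led in healthy mice by skin fibroblasts with 2783 ± 346 CPM (n = 4), joint macrophages with 2598 ± 813 (n = 3), and muscle macrophages with 1985 ± 268 (n = 3), and was lowest in muscle granulocytes with 86.1 ± 58.2 (n = 3). S100a11 alone among these 4 genes was led by granulocytes, with 1189 ± 400 CPM in healthy muscle (n = 3) against 706 ± 419 in muscle macrophages (n = 3). In CIA mice, S100a11 was again led by granulocytes of joint (1071 ± 691 CPM, n = 4) and spleen (835 ± 608, n = 3), which did not differ by more than the larger SD, nor did spleen granulocytes from joint macrophages (724 ± 506, n = 4). Across the 13 healthy and 18 CIA groups of at least 3 mice, between 1 and 5 of the neighbouring steps in the order of a gene exceeded the larger SD.

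**Figure D2:**
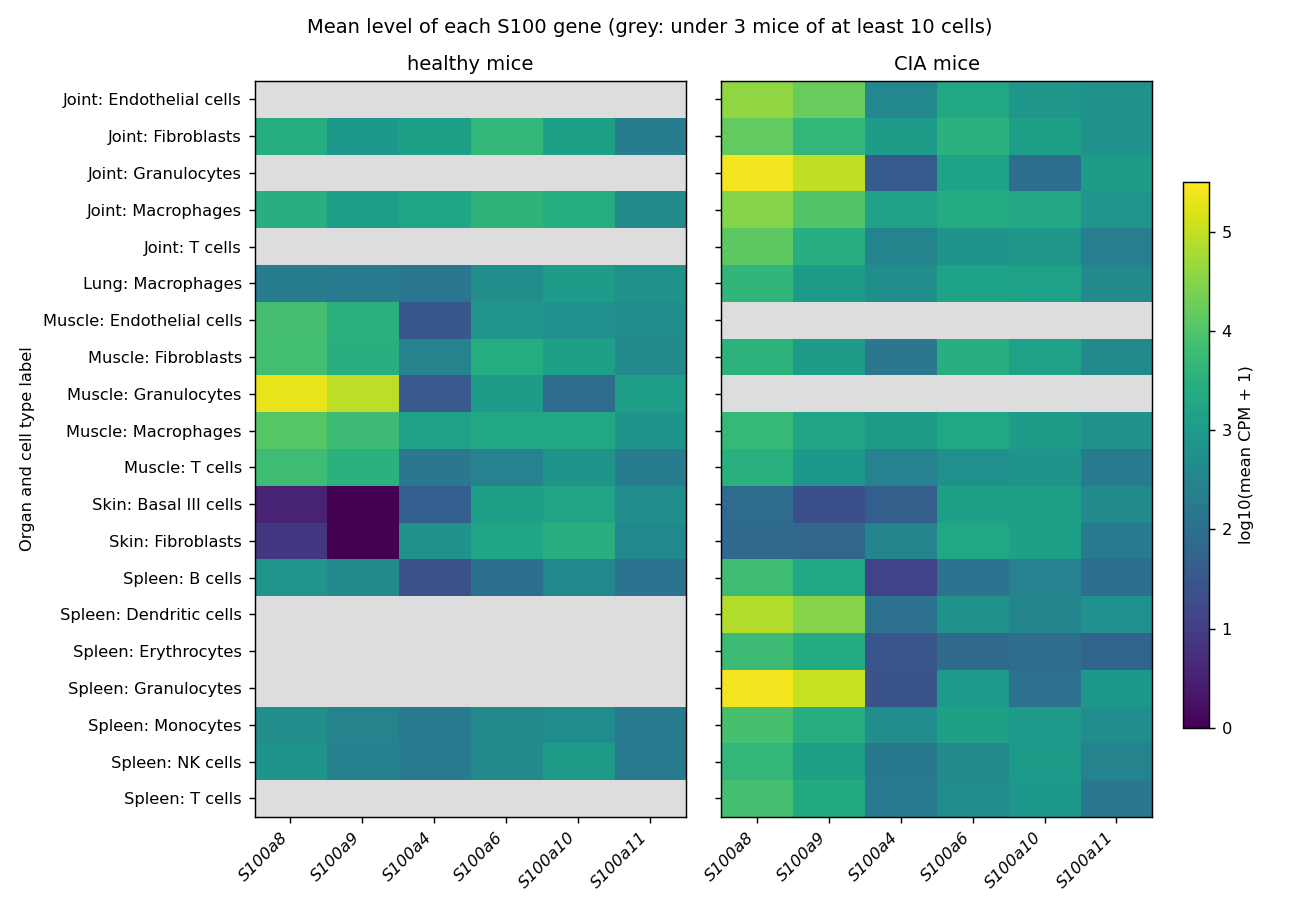
Mean level of each gene as log10(mean CPM + 1) by organ and label, in healthy (left) and CIA (right) mice, for groups of at least 3 mice of at least 10 cells, with other groups in grey. S100a8 and S100a9 are brightest in granulocytes, S100a6 is brightest in joint fibroblasts among the other 4 genes in both groups, and S100a8 and S100a9 are darkest in skin.

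The genes with the most similar profile were looked up over 35 groups of organ and label among 6668 genes, with Spearman's rho of log2(CPM + 10) as the measure and mice pooled. S100a8 was most like S100a9 (0.985), Camp (0.969), and Ngp (0.968). S100a9 was most like S100a8, Ngp (0.980), and Camp (0.979). S100a4 was closest to Crip1 (0.845), Lgals1 (0.821), and Vim (0.762), of which Lgals1 encodes galectin-1 and Vim the intermediate filament vimentin. The nearest genes to S100a6 were Anxa2 (0.886), App (0.869), and Anxa5 (0.854), and those to S100a10 were Crip1 (0.869), Gm21399 (0.854), and Ahnak (0.846), whose product binds S100a10 with annexin A2. S100a11 was nearest to Anxa1 (0.898), its annexin partner, Adam8 (0.815), and Mgst1 (0.812). The groups share libraries and are not independent, and the correlations are a description.

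CIA and healthy mice were compared on sums per mouse in 11 combinations of label and organ with at least 3 mice of at least 10 cells per group, with the quasi-likelihood test of edgeR and p-values adjusted over all genes tested in the fit. A member is called where the adjusted p is under 0.05, and log2 fold changes are CIA over healthy. Of the 66 pairs of member and combination, 10 were called, each of them higher in CIA: 4 in spleen monocytes, 4 in lung macrophages, and 2 in joint macrophages. Over all genes tested, the share called was also highest in these labels, with 6.36%, 6.51%, and 10.3%, respectively. It was 0% to 1.68% in the other combinations. No member was called in fibroblasts of joint, muscle, or skin, in macrophages or T cells of muscle, in basal III cells of skin, or in B cells or NK cells of spleen. Of the 66 pairs, 52 passed the filter on low counts, and the values of the other 14 are from the fit of every gene with a count. The combinations share mice, and each is given with its own values.

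In joint macrophages, S100a8 and S100a9 were higher in CIA mice, and the other 4 genes were not called. S100a8 was 4792 CPM in H3, 588 in H4, and 3652 in H7, and 22976 in S1, 42747 in S3, 21591 in S5, and 42330 in S8, each CIA mouse above each healthy one. The log2 fold change was 3.39 (SE 0.74, adjusted p = 0.0200). S100a9 was 2009, 336, and 1292 CPM in the healthy mice in the same order and 8930, 12245, 8078, and 12103 in the CIA mice, with a log2 fold change of 2.97 (SE 0.54, adjusted p = 0.00997). In this label, 10.3% of 273 genes were called. S100a4 (690 to 2452 CPM in CIA, 1549 to 1798 in healthy mice), S100a6 (1003 to 3447, 3025 to 4357), S100a10 (1158 to 3082, 1765 to 3389), and S100a11 (314 to 1420, 336 to 506, removed by the filter) overlapped between the groups.

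Other granulocyte transcripts moved with this difference. Over the whole list of 4 granulocyte markers, which holds S100a8 and S100a9, all 4 had UMIs in both groups, and the summed level was 924 to 8229 CPM in healthy and 33192 to 59263 in CIA mice. Camp was 0 to 775 CPM in healthy and 842 to 2195 in CIA mice, and Ngp 0 to 654 and 757 to 2634. The macrophage markers summed to 15491 to 25882 CPM in healthy and 18563 to 31787 in CIA mice. When cells with a UMI of Camp, Ngp, or Ltf were left out, the log2 fold change was 4.10 for S100a8 (adjusted p = 0.00445) and 3.13 for S100a9. The part of free RNA in the result was not tested. Without H7, the adjusted p was 0.101 for S100a8 and 0.0712 for S100a9, and without S1, whose library shared barcodes, both were 0.0322. In the mild mice and H4 and H7 alone, the log2 fold changes were 4.01 and 3.67 and neither was called.

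Lung macrophages had 4 members that were higher in CIA, and S100a8 did so without overlap. S100a8 was 172 CPM in H3, 250 in H4, 269 in H6, and 163 in H7, that is 5 to 26 UMIs per mouse. It was 12458 in S1, 4082 in S2, 3208 in S3, 3154 in S5, 2106 in S6, and 464 in S8, where 8 UMIs were counted. All 6 CIA mice were above all 4 healthy mice, with a log2 fold change of 4.19 (SE 0.63, adjusted p = 0.000391). In this label 6.51% of 538 genes were called.

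S100a9 was 89.5 to 344 CPM in healthy lung macrophages (n = 4). It was 116 CPM in S8, within the healthy range, and 631 to 2082 in the other CIA mice, with a log2 fold change of 2.49 (SE 0.53, adjusted p = 0.00733). S100a4 was 65.1 to 239 CPM in healthy mice and 197 CPM in S6, within that range, against 347 to 812 in the other CIA mice (log2 fold change 1.76, SE 0.41, adjusted p = 0.0120). S100a6 was 97.7 to 835 CPM in healthy mice and 449 in S6, with 1074 to 2757 in the other CIA mice (log2 fold change 1.50, SE 0.41, adjusted p = 0.0327). S100a10 (797 to 1991 CPM in CIA, 774 to 1432 in healthy mice) and S100a11 (104 to 778, 358 to 895) were not called.

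Granulocyte genes other than S100a8 and S100a9 were near 0 in lung macrophages. Over the CIA mice, 12 UMIs of Camp, 19 of Ngp, and 0 of Ltf were counted beside 1577 of S100a8, and healthy mice had 1, 1, and 0. All 4 granulocyte markers had UMIs in both groups. Their summed level, which holds S100a8 and S100a9, was 356 to 545 CPM in healthy and 580 to 14701 in CIA mice. In the 5 CIA mice with at least 10 UMIs of S100a9 in lung macrophages, the pooled ratio of Ngp to S100a8 UMIs was 0.0121, with 1089 of the S100a8 UMIs from S1, and it was 0 to 0.0119 in 4 mice and 0.0667 in S6. The pooled ratio was 0.116 in joint granulocytes (0.0536 to 0.134 by mouse) and 0.0557 in joint macrophages (0.0329 to 0.0763) of CIA mice, so that S6 lay within both ranges. S100a8 had 4.84 UMIs for each of S100a9 in lung macrophages of CIA mice (2.03 to 5.98 in the same 5 mice). In joint granulocytes of CIA mice it had 2.29 (2.16 to 3.12 by mouse). Pooled ratios in the spleen of CIA mice ran from 2.11 in dendritic cells to 3.39 in NK cells, and joint T cells had 3.30. A ratio above that of joint granulocytes was thus not particular to lung macrophages. Macrophage markers summed to 26479 to 31170 CPM in healthy and 21174 to 27332 in CIA mice.

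A UMI of S100a8 was found in 63.9% of 393 lung macrophages of CIA mice (95% exact binomial interval 58.9% to 68.6%) and in 13.4% of 284 of healthy mice (9.65% to 17.9%). T cells of the same lungs, which should lack the gene, had one in 54.3% of 35 cells of CIA mice (36.6% to 71.2%) and in 11.6% of 43 of healthy mice (3.89% to 25.1%). The median depth of these 4 groups was 523 to 624 UMIs per cell. With each cell thinned to 400 UMIs, the shares were 51.4% of macrophages and 34.3% of T cells in CIA mice, and 8.10% and 4.65% in healthy mice. The pooled share in macrophages thus moved with that in T cells, and the intervals overlap within the CIA mice. Before thinning, the share in macrophages by mouse was 20.7% (S8) to 76.0% (S2) in CIA mice. In healthy mice it was 9.52% (H7) to 16% (H6). The intervals pool the cells of all mice and cover counting error only. The spread between CIA mice was wider, so the overlap of the intervals does not decide whether macrophages and T cells differ. For S100a4, the share was 28.0% of macrophages and 5.71% of T cells in CIA mice and 8.80% and 11.6% in healthy mice. For S100a6, it was 54.2% and 11.4% in CIA and 19.4% and 4.65% in healthy mice. For these genes, the pooled share in macrophages of CIA mice stood above that in T cells. The shares in T cells of CIA mice rest on 35 pooled cells. No CIA lung had the 10 T cells needed for a value by mouse, and the difference was not tested.

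The call for S100a8 in lung macrophages was kept without S1, whose library shared barcodes with spleen H6 and joint S1 (log2 fold change 3.53, adjusted p = 7.17e-05), and in the mild mice and H4, H6, and H7 alone (3.07, adjusted p = 0.0126). The other calls depended on single libraries. Of the 10 fits that left out 1 mouse, S100a9 and S100a4 were called in 9 and S100a6 in 3. Without H4, adjusted p-values were 0.0576 for S100a9, 0.0546 for S100a4, and 0.127 for S100a6, and without S1 that of S100a6 was 0.0958.

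**Figure D3:**
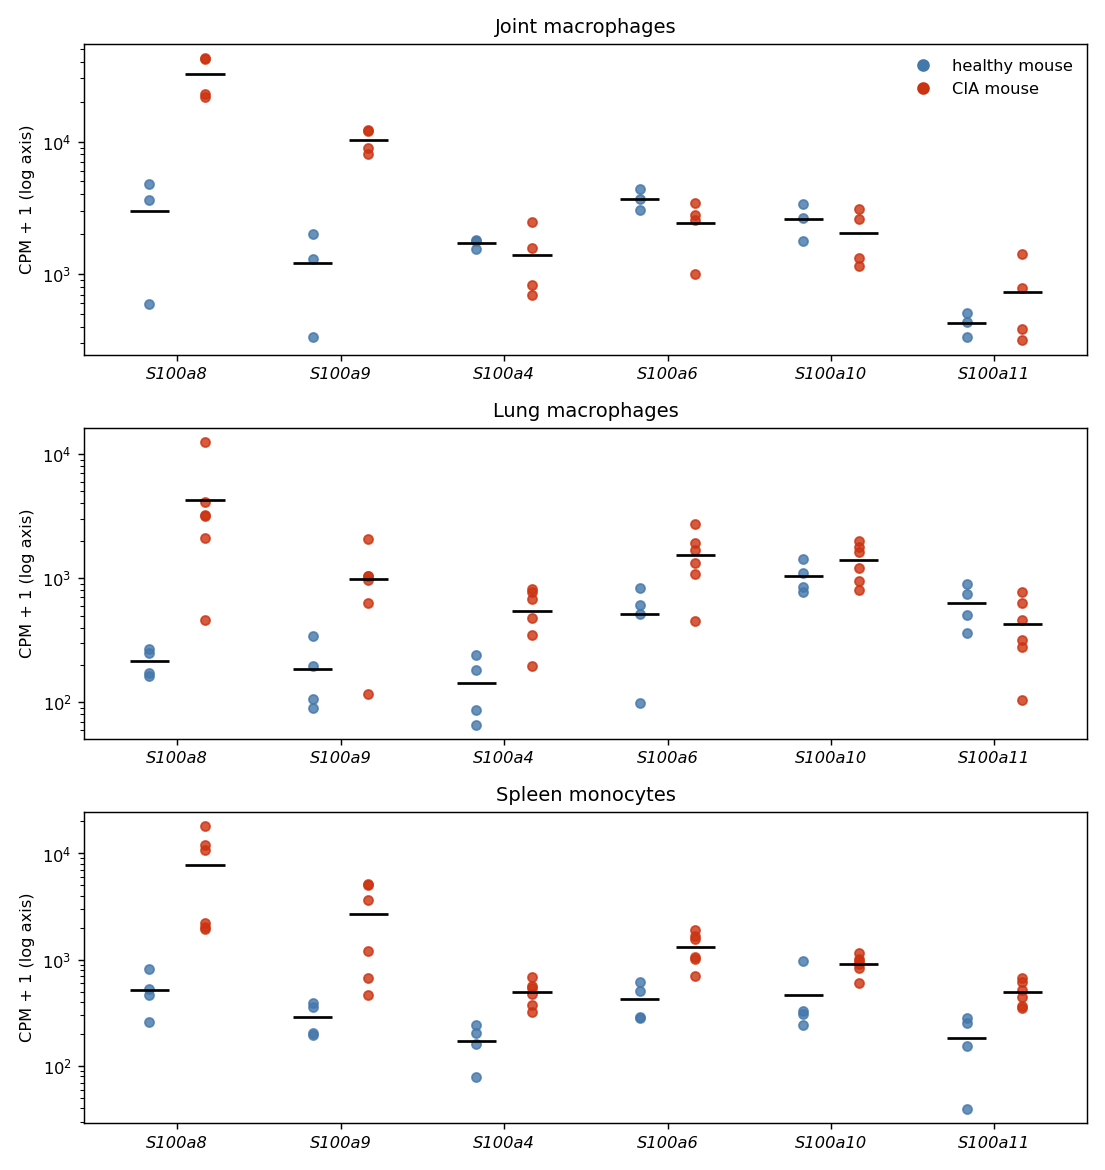
The 6 genes in macrophages of joint (top) and lung (middle) and in monocytes of spleen (bottom) in CPM + 1 on a log axis; points are mice, blue healthy and red CIA, and black bars are group means. Red lies above blue without overlap for S100a8 in all 3 panels, for S100a9 in the joint and spleen panels, and for S100a4, S100a6, and S100a11 in the spleen panel.

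Spleen monocytes had 4 members that were higher in CIA, all without overlap. S100a8 was 258 CPM in H3, 530 in H4, 465 in H6, and 816 in H7. It was 10698 in S1, 12122 in S2, and 17972 in S3, and 2027 in S5, 1964 in S6, and 2213 in S8, so that the 3 severe mice stood above the 3 mild mice and these above the healthy mice. In S8, 46 of 76 UMIs came from 1 cell. The log2 fold change was 3.61 (SE 0.76, adjusted p = 0.0204), with 6.36% of 456 genes called in this label. S100a9 was 194 to 392 CPM in healthy, 465.9 to 1197 in mild, and 3685 to 5177 in severe mice (log2 fold change 2.92, SE 0.71, adjusted p = 0.0354).

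S100a4 and S100a6 were also called, with smaller fold changes. S100a4 was 206, 159, 77.4, and 245 CPM in H3, H4, H6, and H7, and 475, 690, 321, 540, 561, and 379 in S1, S2, S3, S5, S6, and S8 (log2 fold change 1.35, SE 0.35, adjusted p = 0.0398). S100a6 was 286 to 618 CPM in healthy and 701 to 1922 in CIA mice (log2 fold change 1.44, SE 0.33, adjusted p = 0.0304). S100a11 was 38.7 to 286 CPM in healthy and 351 to 670 in CIA mice, without overlap, but it was not called (log2 fold change 1.09, SE 0.40, adjusted p = 0.135). S100a10 overlapped, with 979 CPM in H3, 244 to 327 in the other healthy mice, and 598 to 1149 in CIA mice.

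In spleen monocytes, the sum of the 4 granulocyte markers rose in CIA mice, but this sum holds S100a8 and S100a9. The 4 markers had UMIs in both groups and summed to 722 to 1021 CPM in healthy and 2679 to 24005 in CIA mice. Camp was 0 to 116 CPM in healthy and 0 to 707 in CIA mice. Ngp was 0 to 103 and 0 to 559 CPM, so both genes overlapped between the groups. Monocyte markers summed to 581 to 825 CPM in healthy and 656 to 2175 in CIA mice, and macrophage markers to 3638 to 7429 and 9187 to 16449. Without cells that held Camp, Ngp, or Ltf, the log2 fold changes were 3.56 for S100a8 (adjusted p = 0.0168), 2.91 for S100a9 (0.0299), and 1.62 for S100a6 (0.0141), and that of S100a4 was 1.37 and no longer called (0.190). S100a9 was called in 3 of the 10 fits that left out 1 mouse, S100a4 in 1, S100a6 in 6, and S100a8 in 7. Without H6, whose library shared barcodes with lung S1, none of the 4 genes was called (adjusted p = 0.0689 for S100a8 and S100a6, 0.105 for S100a9, and 0.123 for S100a4). In the mild mice and H4, H6, and H7 alone, the log2 fold changes were 1.55, 1.21, 1.38, and 1.19 for S100a8, S100a9, S100a4, and S100a6, with adjusted p-values from 0.0717 to 0.267.

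B cells and NK cells of spleen, which should not make S100a8, showed the same order of mice. In B cells, S100a8 was 559 to 1009 CPM in healthy mice, 1533 to 2181 in mild mice, and 6394 to 16458 in severe mice, without overlap. The log2 fold change was 3.01 (SE 0.61, adjusted p = 0.100), in a label in which 0% of 1252 genes were called by edgeR, 40 had an unadjusted p under 0.05, and DESeq2 called 4. In NK cells, S100a8 was 436 to 912 CPM in healthy, 1845 to 2203 in mild, and 7892 and 8118 in the 2 severe mice measured (log2 fold change 2.61, SE 0.56, adjusted p = 0.265). There 0% of 421 genes were called, 11 had an unadjusted p under 0.05, and DESeq2 called 3. S100a9 and S100a11 in NK cells also did not overlap (adjusted p = 0.467 and 0.661), and the latter was removed by the filter and read from the fit of all genes. DESeq2 called S100a8 in both labels (adjusted p = 0.000411 and 0.00153), and edgeR called it in B cells without S8, whose spleen shared barcodes with its muscle (log2 fold change 3.24, adjusted p = 0.0403), and without cells that held Camp, Ngp, or Ltf (2.64, adjusted p = 0.0363). Camp was 0 to 65.5 CPM in B cells of healthy and 74.5 to 655 in those of CIA mice.

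S100a4 and S100a6 did not show this in B cells. S100a4 was 13.1 to 30.1 CPM in healthy and 0 to 32.0 in CIA mice, and S100a6 72.7 to 181 and 32.0 to 218. A UMI of S100a8 was found in 89.9% of spleen monocytes and 77.0% of B cells of CIA mice (median 813 and 570.5 UMIs per cell), and in 22.7% and 24.6% in healthy mice (median 824 and 609). Thinned to 400 UMIs, the shares were 75.6% and 68.6% in CIA and 13.95% and 16.9% in healthy mice. These shares pool cells, and the mice gave unlike numbers of cells to the 2 labels. By mouse and before thinning, monocytes and B cells both had 100% in S1 and S3 and 97.6% in S2. The shares were 81.25% and 72.0% in S5, 85.7% and 69.3% in S6, and 44.4% and 48.4% in S8. The pooled shares thus do not decide whether the 2 labels differ. For S100a4, the pooled share was 32.0% of monocytes and 0.755% of B cells in CIA mice and 11.6% and 1.35% in healthy mice. For S100a6, it was 52.5% and 5.14% in CIA and 25.0% and 4.42% in healthy mice.

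The level of a label relative to another label of the same mouse was compared in a test added after these values were seen. The log2 ratio of S100a8 in spleen monocytes to that in B cells was -0.57 ± 0.49 in healthy (SD, n = 4) and 0.30 ± 0.41 in CIA mice (n = 6). Healthy mice ranged from -1.29 to -0.27 and CIA mice from -0.15 to 0.92, without overlap, and the difference was 0.86 (two-sided exact permutation p = 0.00952, the smallest possible, adjusted p = 0.0571 over 6 tests). For S100a9, the difference was 0.89 (exact permutation p = 0.0667, adjusted p = 0.200). The ratio of NK cells to B cells differed by 0.18 for S100a8 (exact permutation p = 0.238) and 0.97 for S100a9 (p = 0.175). Joint macrophages relative to joint fibroblasts differed by 0.97 for S100a8 (exact permutation p = 0.200) and 0.63 for S100a9 (p = 0.100), where 3 mice against 3 allow no p below 0.100.

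**Figure D4:**
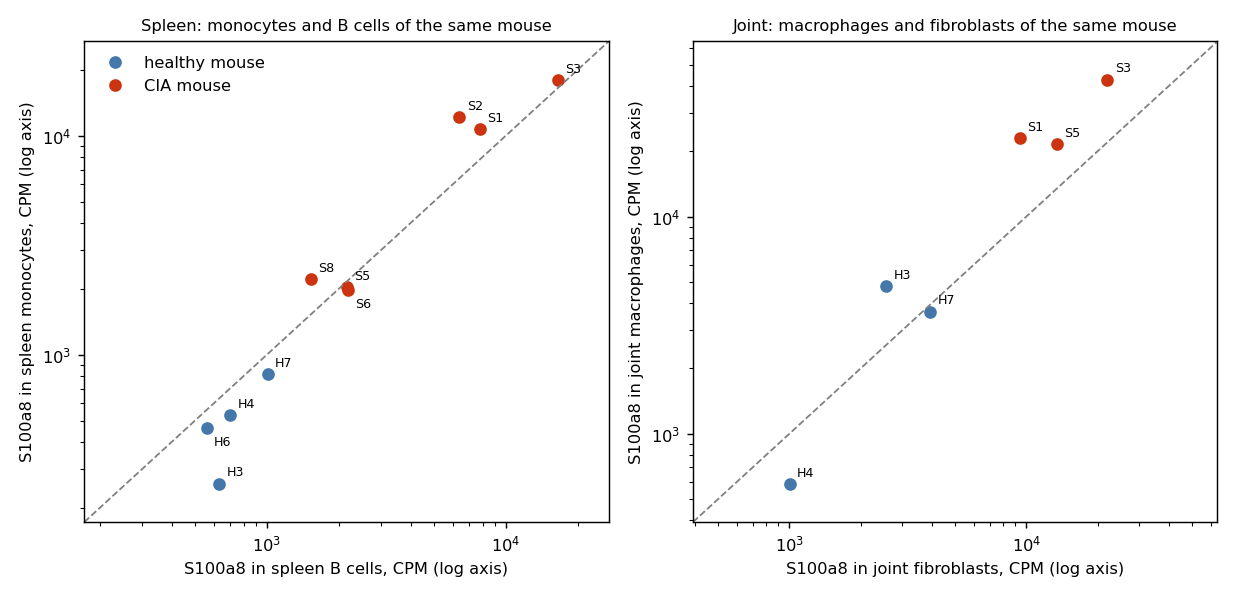
S100a8 in spleen monocytes against spleen B cells (left) and in joint macrophages against joint fibroblasts (right) of the same mouse, in CPM on log axes; blue points are healthy and red points CIA mice, and the dashed line marks equal levels. The 4 healthy mice of the left panel lie below the line, and in that panel both labels rise together from healthy to mild to severe mice. In the right panel, the CIA mice lie above the healthy mice in both labels, and the mild mouse S5 lies above the severe mouse S1 in fibroblasts.

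Joint fibroblasts had 3 members without overlap between 3 and 3 mice, none of them called, and 1.68% of 1014 genes were called in this label. S100a8 was 2564 CPM in H3, 1006 in H4, and 3934 in H7, and 9391 in S1, 22016 in S3, and 13480 in S5 (log2 fold change 2.57, SE 0.60, adjusted p = 0.0851). S100a9 was 201 to 1216 CPM in healthy and 2861 to 5974 in CIA mice (2.38, SE 0.61, adjusted p = 0.106), and S100a11 was 155 to 237 and 466.3 to 932 (1.54, SE 0.42, adjusted p = 0.129). DESeq2 called S100a8 and S100a9 here (adjusted p = 0.00146 and 0.0161). Without cells that held Camp, Ngp, or Ltf, the log2 fold change of S100a11 was 0.59.

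In the 3 labels of muscle that could be compared, S100a8 overlapped between the groups. In muscle macrophages, S100a8 was 8475, 4156, and 20471 CPM in H4, H6, and H7, and 256, 2070, 9671, and 7180 in S2, S3, S5, and S6. In H7, 508 of the 678 UMIs came from 1 of 33 cells, and the level of this mouse rests on that cell. The groups overlapped (log2 fold change -1.05, SE 0.94), in a label in which 0.183% of 545 genes were called. In muscle T cells it was 4466 to 7817 CPM in healthy and 154 to 6946 in CIA mice, with 0.0511% of 1957 genes called. S100a6 in muscle T cells was 239 to 305 CPM in healthy and 389 to 874 in CIA mice, without overlap, and was not called (log2 fold change 0.99, SE 0.40, adjusted p = 0.675). In muscle fibroblasts, S100a8 was 1015 to 9489 CPM in healthy and 206 to 6937 in CIA mice, and 0% of 173 genes were called (11 with an unadjusted p under 0.05, 3 by DESeq2).

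In skin, the groups did not overlap for S100a10 in fibroblasts. It was 2539, 2483, 3229, and 2881 CPM in H3, H4, H6, and H7, and 986, 973, 1051, 1724, and 1561 in S1, S2, S3, S5, and S8, each CIA mouse below each healthy one. The log2 fold change was -1.15 (SE 0.23) but was not called by edgeR (adjusted p = 0.0763), which called 0% of 349 genes in this label (31 with an unadjusted p under 0.05). DESeq2 called 1 gene, which was S100a10 (adjusted p = 0.0166). Over all skin cells, S100a10 was 1597 to 2223 CPM in healthy and 1163 to 1519 in CIA mice, again without overlap (log2 fold change -0.68, SE 0.16, adjusted p = 0.263).

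S100a8 and S100a9 were rare in skin and were removed by the filter on low counts. Over all skin cells, 2 UMIs of S100a8 were counted in 4 healthy mice, and 69 in S2, 7 in S1, 8 in S3, 5 in S5, 5 in S8, and 0 in S6. In the fit of all genes with a count, S100a8 had an adjusted p of 2.60e-06 over all skin cells and of 0.00250 in basal III cells, where healthy mice had 1 UMI and S2 had 36 of the 55 counted. S100a9, with 36 UMIs in all and none in healthy mice, had an adjusted p of 0.00899 over all skin cells. These 3 values are not counted among the calls, since the groups overlapped and the fit without a filter rests on few UMIs. In basal III cells, 0% of 1280 genes were called in the filtered fit (71 with an unadjusted p under 0.05, none by DESeq2), and S100a6, S100a10, and S100a11 had log2 fold changes of -0.02, -0.36, and -0.27.

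Summed over all annotated cells of an organ, S100a8, S100a9, and S100a4 were higher in the lung of CIA mice, and no member was called in the other organs. In such sums, more cells of a type and more RNA per cell cannot be told apart. In lung, S100a8 was 146 to 258 CPM in healthy mice, and 13394 in S1, 3861 in S2, 2744 in S3, 5988 in S5, 2262 in S6, and 451 in S8 (log2 fold change 4.40, SE 0.65, adjusted p = 0.000330). S100a9 had a log2 fold change of 2.85 (SE 0.59, adjusted p = 0.00603) and S100a4 of 1.59 (SE 0.40, adjusted p = 0.0281), with S8 and S6, respectively, in the healthy range, and 4.96% of 686 genes were called. Without granulocytes and neutrophils, the log2 fold change of S100a8 was 4.10 (adjusted p = 0.000318). Without H4, those of S100a9 and S100a4 were 2.65 and 1.90 and no longer called (both adjusted p = 0.0512), and S100a4 was called in 5 of the 10 fits that left out 1 mouse, that without S1 not among them.

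In the joint, S100a8 overlapped between the groups, with 24403, 9029, and 25482 CPM in H3, H4, and H7, and 73531, 61015, 114819, 24651, and 150319 in S1, S3, S5, S6, and S8. The log2 fold change was 2.36 (SE 0.72, adjusted p = 0.207), with 0.127% of 2364 genes called. S100a6 was below the healthy range in all 5 CIA joints, 846 to 2415 CPM against 2661 to 3545, and was not called (log2 fold change -0.56, SE 0.42, adjusted p = 0.638). Granulocytes and neutrophils made up 3.14% to 13.9% of the cells of healthy and 15.8% to 54.2% of those of CIA joints.

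In spleen, S100a8 was 2307 to 4144 CPM in H4, H6, and H7, 15046 in H3, 12398 to 18579 in mild mice, and 47415 to 80564 in severe mice, so that H3 lay among the mild mice. S100a9 (897 to 4911 CPM in healthy, 5592 to 36735 in CIA mice), S100a4 (63.0 to 100 and 124 to 199), and S100a11 (94.4 to 207 and 209 to 634) did not overlap. None of them was called (adjusted p = 0.139, 0.379, and 0.689), and 0.137% of 2927 genes were. Granulocytes and neutrophils made up 0% to 2.42% of the cells in healthy and 1.95% to 16.5% in CIA spleens.

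In muscle, both S100a8 and S100a9 lay lower in CIA mice and neither was called. S100a8 was 19942, 57430, 52545, and 47985 CPM in H3, H4, H6, and H7, and 14482, 1679, 14487, 15507, 15247, and 16890 in S1, S2, S3, S5, S6, and S8, each CIA mouse below each healthy one. The log2 fold change was -1.99 (SE 0.64, adjusted p = 0.611) and that of S100a9 was -2.35 (SE 0.61, adjusted p = 0.368), with 0.0550% of 3634 genes called. Without the muscle library of S8, these values were -2.09 and -2.45. Without granulocytes and neutrophils they were -0.75 and -1.05. Granulocytes and neutrophils made up 7.14% to 28.0% of the cells of healthy and 0.575% to 4.47% of those of CIA muscle, and their part in the result was not tested further. Over all skin cells, 0% of 2180 genes were called (160 with an unadjusted p under 0.05, 11 by DESeq2).

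**Figure D5:**
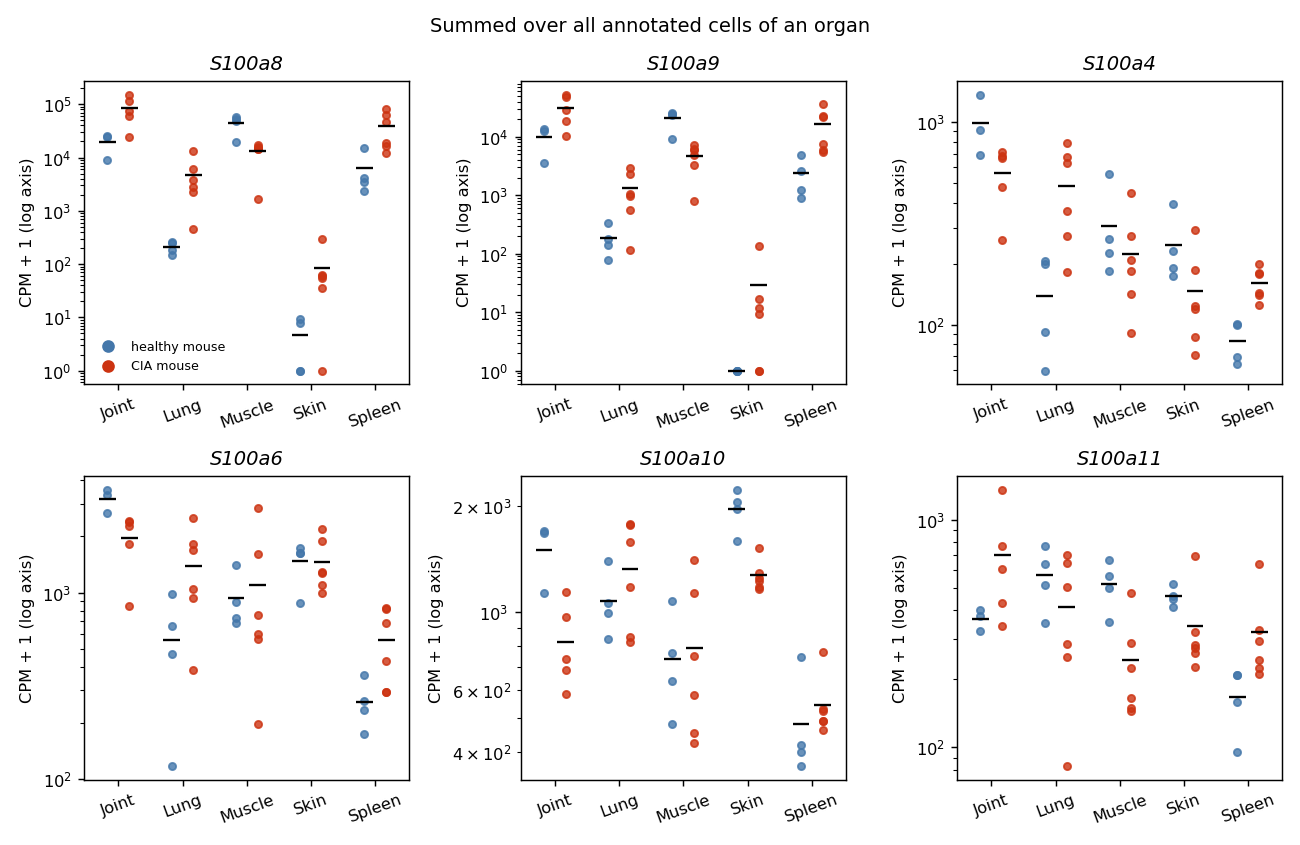
The 6 genes summed over all annotated cells of an organ, in CPM + 1 on a log axis; points are mice, blue healthy and red CIA, and black bars are group means. S100a8 and S100a9 lie for the most part higher in red in lung and spleen and lower in red in muscle, and S100a10 is lower in red in skin without overlap.

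The difference of the disease effect between organs was tested as an interaction, with 0 of 18 tests of members called by edgeR, 8 at an unadjusted p under 0.05, and 3 called by DESeq2. For S100a8, the log2 fold change in macrophages was higher in joint than in muscle by 4.45 (SE 1.29, adjusted p = 0.0988), and for S100a9 by 4.69 (SE 1.22, adjusted p = 0.0713), with 1.24% of 563 genes called. With the mouse as a block, in the 4 mice with both organs, the differences were 5.61 and 5.73 and both were called (adjusted p = 0.0208 and 0.0107), which rests on few mice. These were H4, H7, S3, and S5. In muscle macrophages of H7, 508 of 678 UMIs of S100a8 and 301 of 392 of S100a9 came from 1 cell. That cell entered the macrophage fits with and without the block. Over all cells, joint exceeded muscle by 4.34 for S100a8 (SE 0.97, adjusted p = 0.0741) and by 4.27 for S100a9 (SE 0.97, adjusted p = 0.0836), with 0.0707% of 4241 genes called. With the mouse as a block, in 8 mice, these differences were 3.62 and 3.70 (both adjusted p = 0.321). Between macrophages of joint and lung, S100a4 and S100a6 differed by -1.97 and -2.08 (joint minus lung, both adjusted p = 0.104), with 0.127% of 788 genes called, and with the mouse as a block S100a6 was called (-2.54, adjusted p = 0.0446) and S100a4 was not (-2.47, adjusted p = 0.0624). S100a8 and S100a9 were not shown to differ between joint and lung macrophages (adjusted p = 0.825 and 0.855).

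No gene known to work with the members was called. Of 9 annexins and other binding partners, up to 8 passed the filter in a comparison and none was called in any of the 16 label and organ fits, and the same held for 7 receptors of S100a8 and S100a9, among them Tlr4, Cd14, and Ager, of which at most 4 passed. Over these fits, 7 of 75 edgeR tests of partners and 4 of 21 of receptors had an unadjusted p under 0.05. None of 10 other S100 genes was called (2 of 18 tests with an unadjusted p under 0.05), of which S100a13 was the most abundant with 2000 UMIs. Among 13 other granulocyte genes, 2 of the 4 that passed the filter in joint fibroblasts were higher in CIA. These were Retnlg, a resistin-like gene of granulocytes (log2 fold change 2.76, adjusted p = 0.0276), and Ifitm6 (3.57, adjusted p = 0.0482), and the median over the 4 genes was 2.15 against 0.06 over all genes tested. Over all cells of muscle, Mmp8, the neutrophil collagenase, was lower in CIA (-3.54, adjusted p = 0.0366), and the median over the 12 granulocyte genes tested was -2.49 against 0.05 over all genes. In spleen the median over 8 such genes was 2.93 against -0.01, and in joint over 12 it was 1.95 against 0.02, with none called by edgeR.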

How the data were processed

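The deposited table held raw UMI counts per gene and cell for 48 samples. The authors had aligned reads with STAR to GRCm38 and counted UMIs with Drop-seq tools, whereas the submitters' processing notes list the builds GRCh38 and mm9. A deposited annotation gave each cell's label as text (another unit than a count), and 1144 cells without a label were left out. Doublets had not been marked in the files used here and were not called; cells over 6000 UMIs were left out in an alternative. No column belonged to no sample (0).

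UMIs were summed per mouse, organ, and label (at least 10 cells, at least 3 mice per group) and tested with edgeR 4.0.16 in R 4.3.3 (TMM, filterByExpr, quasi-likelihood test, Benjamini-Hochberg adjustment over all genes of a fit, threshold 0.05). The SE is the absolute log2 fold change over the square root of F. DESeq2 1.42.0, other scalings, no filter, the experiment, red cell lysis, other cell minimums, and leaving out each mouse were alternatives. Single values were tested with exact permutation tests (Python 3.11.15, SciPy 1.17.1) on log2(CPM + 1). For shares, each cell was thinned to 400 UMIs. Intervals cover counting error only. Depth was 17748 to 1645734 annotated UMIs per sample, and 3 UMIs is the upper limit that a count of 0 allows. The scripts were tested on simulated data.

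The 6 members were described in every comparison, and genes of the fixed lists were named where called. Members and lists were chosen with earlier results of these data known. For tests between organs, the same mouse name marks the same animal, and the deviations of joint and muscle of a mouse correlated between -0.143 and 0.262 over 7221 genes in 8 mice.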

Additional observations from a re-analysis of the deposited data

Results flagged for a closer look

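In 11 of 54 groups of 4 to 6 mice, summed over all annotated cells, 1 mouse lay far from the others by Dixon's test, which chance gives in about 1 group in 20. In muscle, S2 had the lowest S100a8 of the CIA mice with 1679 CPM (the nearest had 14482), and H3 the lowest S100a9 of the healthy mice with 9060 CPM (23846). In skin, S2 was the highest CIA mouse for S100a8 with 290 CPM (62.6), for S100a9 with 134 CPM (15.6), and for S100a11 with 689 CPM (321). S6 was the highest CIA mouse for S100a10 in skin with 1519 CPM (1289), and H4 the lowest healthy mouse for S100a6 in skin with 879 CPM (1627). In spleen, S3 was the highest CIA mouse for S100a10 with 772 CPM (531) and S2 for S100a11 with 634 CPM (326). The healthy mouse H3, which shares its experiment with the severe mice, was highest in spleen for S100a8 with 15046 CPM (4144) and for S100a10 with 745 CPM (418).

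The direction of the difference over all cells changed with the organ. S100a8 was above all healthy mice in the lung of every CIA mouse (log2 fold change 4.40) and below all in muscle (-1.99), and S100a9 was above in spleen (2.88) and below in muscle (-2.35). These differences between lung or spleen and muscle were not tested.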

How the results depend on the processing

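The count of 10 pairs of member and label called became 16 with DESeq2 and 1 in the mild mice and their healthy controls alone, and it ranged from 3 (without H4) to 10 when 1 mouse was left out (4 without H7, 6 without H6). The 3 pairs of member and organ called became 8 with DESeq2, 7 without a filter on low counts, and 1 in the mild mice alone, and 1 (without H4) to 4 when 1 mouse was left out. DESeq2 called more of all genes than edgeR in most label fits, with 45 against 29 in spleen monocytes and 41 against 17 in joint fibroblasts. It also called more in each organ fit, with 46 against 3 in joint and 47 against 4 in spleen. The count of 0 for differences between organs became 3 with the mouse as a block, the pairing being by animal, and 3 with DESeq2, and it ranged from 0 to 2 when 1 mouse was left out (1 without S2, 2 without S5, 2 without S6). In joint granulocytes, the log2 difference of S100a8 ranged from 0.14 to 0.52 when 1 mouse was left out, and that of S100a9 from -0.092 to 0.070, turning positive without H4 (0.0052), H7 (0.070), and S8 (0.060). The cause of these changes was not tested. For single members, 301 values kept their direction and side of the threshold when 1 mouse was left out, 40 lost the call, and 2 gained it, and under the other settings the numbers were 238, 17, and 18, with 0 reversals. A minimum of 10 granulocytes left too few mice for a value. Depth limits S100a8 and S100a9 in skin, with 96 and 36 UMIs in all.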
